A study of Mus musculus with 7 samples.

Results

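The Ifi200 genes, also called HIN-200 or PYHIN genes, are a tandem family of interferon-inducible genes on mouse chromosome 1. They were followed here in C3H10T1/2 cells, a mouse mesenchymal line, during early induction towards bone. The family was given by 10 names, of which 9 had a row of their own among the 54532 features of the deposited count table. The remaining name, Mnda, is listed by RefSeq as a synonym of Ifi211 and has no row of its own, so the family has 9 genes here: Ifi203, Ifi204, Ifi205, Ifi207, Ifi208, Ifi209, Ifi211, Mndal and Aim2. The genes were chosen by name with their counts in OB and control already known, so their values in that comparison are given as a description, without a p-value.

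The OB group had 4 libraries from cells kept for 3 days in osteogenic medium, which held dexamethasone (a synthetic glucocorticoid whose dose the labels write ambiguously), 10 mM β-glycerophosphate, ascorbic acid at 50 µM and penicillin-streptomycin. The control group had 3 libraries from untreated cells, for which no day is given. Time in culture and the medium therefore cannot be told apart. Both groups come from 1 cell line grown with serum, non-essential amino acids, glutamine and pyruvate, and the design text calls the replicates biological. The libraries also fall into 2 label sets by the submitters' descriptions. OB 1, OB 2, control 1 and control 2 carry a C number (C-numbered), and OB 3, OB 4 and control 3 carry none (unnumbered). Total counts were 21213328 to 43403730 in OB and 25689889 to 46530017 in control, and a count of 3 equals 0.0645 to 0.141 CPM (counts per 1e6 counts, scaled by TMM factors) per library. Table columns carry numbers only, and they were tied to groups through the input files listed, in order, by the recorded featureCounts command. Tsc22d3 and Fkbp5, both glucocorticoid receptor targets, served as a check of the induction and stood at 490 ± 78.3 and 390 ± 38.2 CPM in OB (SD, n = 4), against 38.7 ± 8.48 and 27.8 ± 18.8 CPM in control (SD, n = 3).

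As background, most Ifi200 proteins join a pyrin domain, which binds other pyrin domains, to HIN domains, which bind DNA. Several act in the nucleus on transcription and growth, and others sense DNA in the cytosol. Aim2 assembles an inflammasome with the adaptor Pycard and caspase-1. The Ifi204 protein, p204, binds the retinoblastoma protein and has been described in mouse cells as a cofactor of Runx2, the transcription factor of bone commitment. Many interferon-inducible promoters hold an interferon-stimulated response element (ISRE).

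Most of the promoters found share a short sequence, and its part in the levels in OB was not tested. RefSeq promoter windows (GRCm38.p6) were found for 8 of the 9 genes; Ifi204 had no entry. The ISRE was searched as GAAA, any 2 bases and GAAA on both strands of the 250 bases before each start. It was present for 6 of the 8 genes and in 2.98% of all 32851 windows. In the following 30-base stretches, read 5′ to 3′ on the gene's strand, capitals mark the 10 letters of the motif, or for Ifi209 the 10 letters nearest to it.
Ifi207: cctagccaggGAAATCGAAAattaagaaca
Ifi208: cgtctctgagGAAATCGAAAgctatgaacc
Ifi203: aagagctgggGAAATCGAAAgctatgaaca
Mndal: aagagctgggGAAATCGAAAgctatgaaca
Ifi211: caaagccaggGAAATTGAAAgctatgaacg
Ifi205: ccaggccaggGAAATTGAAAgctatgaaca
Ifi209: aatctctgagTAAATCGAAAgagatgcact

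The stretches of Ifi203 and Mndal are letter for letter the same. Those of Ifi207 and Ifi208 lie at chr1:173741831-173741860 (minus strand) and chr1:173673597-173673626 (plus strand). The motif begins 41 bases before the start of Ifi207, 58 before that of Ifi208, 35 before that of Ifi203, 36 and 37 before those of Mndal and Ifi211, and 134 before that of Ifi205. A second window of Mndal, for another start, holds a match on the other strand. The second window of Ifi203 holds no match. The letters GAAATCGAAA occur in 13 of the 32851 windows, 0.0396% of them, and 7 of these 13 belong to genes of the locus: Ifi203, Ifi207, Ifi208 and Mndal of the family, and the neighbours Ifi206, Ifi213 and Ifi214. Ifi209 differs from these letters by G1T, counted from 1 at the first capital. Aim2 and the neighbour Ifi202b had no stretch with fewer than 4 differences from GAAATCGAAA. Near stretches were sought only on the gene's strand and away from the ends of the window. A glucocorticoid response element, searched as GNACA, any 3 bases and TGTNC, was found in 0.387% of all windows and in none of the locus, and the GAS element, TTC, any 3 bases and GAA, in 7.02% of all windows and at the locus for Ifi202b only. A match is a string of letters, and its absence says only that these letters are not in the window.

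Ifi207, the family gene with the longest coding sequence (2934 bases), showed the widest gap between groups. It had 4490, 8862, 1685 and 2572 counts in OB 1 to 4, against 76, 39 and 32 counts in control 1 to 3. Those counts correspond to 183, 208, 78.1 and 106 CPM in OB and 1.62, 1.11 and 1.27 CPM in control. Every OB library was far above every control library, and the C-numbered OB libraries were the higher pair. The log2 fold change by edgeR was 6.74 ± 0.46 (SE), a fold of 107. In these bulk libraries more cells with the transcript and more transcript per cell cannot be told apart.

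Ifi204, the gene of p204, was already expressed in untreated cells. It stood at 175, 194, 107 and 122 CPM in OB 1 to 4, against 22.1, 17.6 and 45.9 CPM in control 1 to 3. The groups did not overlap, but control 3 was well above the other controls, and OB 3 and OB 4 were below OB 1 and OB 2. Its log2 fold change was 2.39 ± 0.38 (SE), a fold of 5.24. Ifi211 followed the same order, at 57.8, 66.1, 31.0 and 32.4 CPM in OB and 7.43, 6.32 and 14.4 CPM in control, with a log2 fold change of 2.33 ± 0.40. The ratio of Ifi204 to Ifi211 CPM was 2.94 to 3.76 in OB and 2.79 to 3.19 in control. The ratio of Ifi207 to Ifi204 was 0.732 to 1.07 in OB and 0.0277 to 0.0731 in control.

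**Figure D1:**
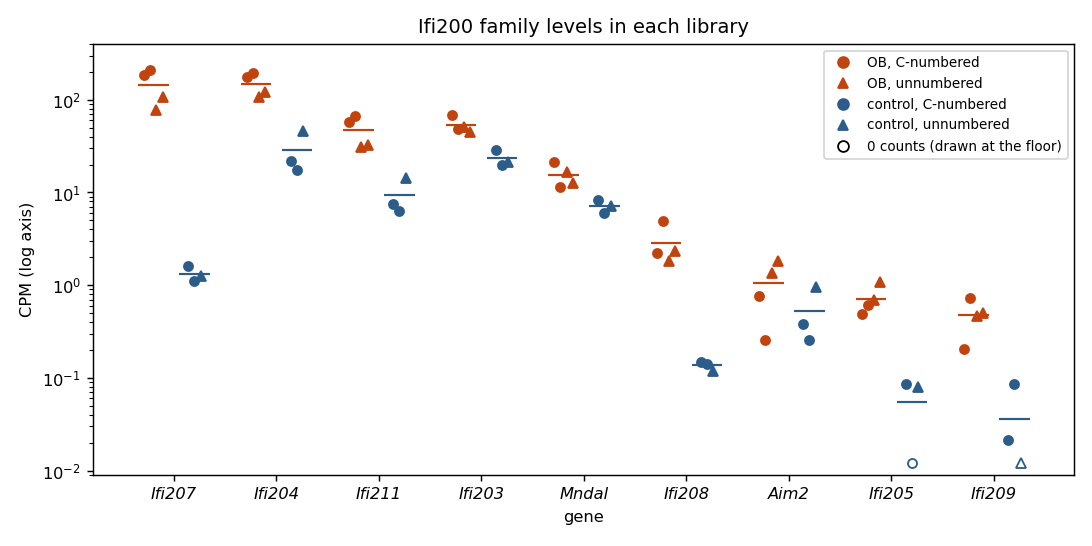
CPM of each family gene (log axis) in 4 OB libraries (left, orange) and 3 control libraries (right, blue), with group means as bars, circles for C-numbered and triangles for unnumbered libraries, and open symbols at the floor for a count of 0. Ifi207 stood at 78.1 to 208 CPM in OB and 1.11 to 1.62 CPM in control, and only Aim2 had overlapping groups.

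Ifi203 and Mndal moved less and more evenly. Ifi203 stood at 68.9, 48.3, 51.4 and 44.6 CPM in OB 1 to 4, against 28.9, 19.9 and 21.2 CPM in control 1 to 3. Mndal stood at 21.1, 11.4, 16.8 and 12.5 CPM in OB, against 8.28, 6.01 and 7.18 CPM in control. Neither gene had overlapping groups, and OB 1 and control 1 were the highest library of their group for both. Their log2 fold changes were 1.19 ± 0.20 and 1.11 ± 0.25 (SE), folds of 2.28 and 2.15.

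Ifi208, Ifi205 and Ifi209 were rare in untreated cells. Ifi208 had 359 counts over the OB libraries and 15 over the control libraries, or 2.24, 4.91, 1.81 and 2.32 CPM in OB and 0.149, 0.142 and 0.119 CPM in control. Ifi205 had 79 counts over OB and 6 over control, with 0 in control 2. Ifi209 had 58 counts over OB and 4 over control, with 0 in control 3. All OB libraries were above all control libraries for these genes. The ratio of pooled CPM was 22.7 for Ifi208 (95% exact binomial interval 13.6 to 41.1), 12.5 for Ifi205 (5.50 to 35.1) and 13.8 for Ifi209 (5.10 to 52.3), intervals that cover counting error only. Without control 1 the ratio of Ifi205 was 21.1, and without control 2 that of Ifi209 was 37.1. The fitted log2 fold changes were 4.32 ± 0.48, 3.60 ± 0.66 and 3.57 ± 0.75 (SE). The fitted value was 4.21 for Ifi205 without control 1 and 4.78 for Ifi209 without control 2.

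Aim2, the inflammasome sensor, was the gene whose groups overlapped. It stood at 0.773, 0.259, 1.34 and 1.82 CPM in OB 1 to 4, against 0.383, 0.256 and 0.953 CPM in control 1 to 3, and the unnumbered libraries were the high ones in both groups. Its log2 fold change was 0.99 ± 0.70 (SE). Of its partners, picked out after their values were seen, Pycard had 40 counts over the OB libraries and 34 over the control libraries. Casp1 had 87 counts over OB and 3 over control, with 0.813 and 1.5 CPM in OB 1 and OB 2 and 0.0463 and 0.0827 CPM in OB 3 and OB 4. Both were too rare to pass the filter on low counts that preceded the edgeR test.

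All 9 family genes passed the filter on low counts, and the log2 fold change was positive for all 9. It ranged over 0.99 to 6.74 and its median was 2.39, beside a median of 0.00 over all 15441 genes tested. By edgeR's quasi-likelihood test at an adjusted p under 0.05, 8 of the 9 were higher in OB, where 4.32% of all genes tested were called higher, and 0 were lower, where 3.72% of all were. Every OB library was above every control library for 8 of the 9, as for 13.2% of all genes tested. Because the family was listed with this contrast known, nothing is read from these counts. The number past the threshold was 4 without control 2, 5 without OB 1 and 5 among the C-numbered libraries alone. Ifi209 fell below the filter in the C-numbered libraries. Ifi205, Ifi208 and Ifi209 were so rare in control that they passed the filter through their OB libraries.

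Summed over the 9 genes, the family stood at 509, 535, 288 and 324 CPM in OB 1 to 4, against 69.0, 51.4 and 91.2 CPM in control 1 to 3. The group means were 414 ± 126 CPM in OB (SD, n = 4) and 70.5 ± 19.9 CPM in control (SD, n = 3), a ratio of 5.87. The make-up of the sum differed as well. Ifi207 held 33.7% of it in OB and 1.97% in control, Ifi203 held 13.5% in OB and 34.6% in control, and Mndal held 3.99% in OB and 10.5% in control. Ifi204 held 36.3% in OB and 38.9% in control, and Ifi211 11.1% in OB and 13.0% in control.

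**Figure D2:**
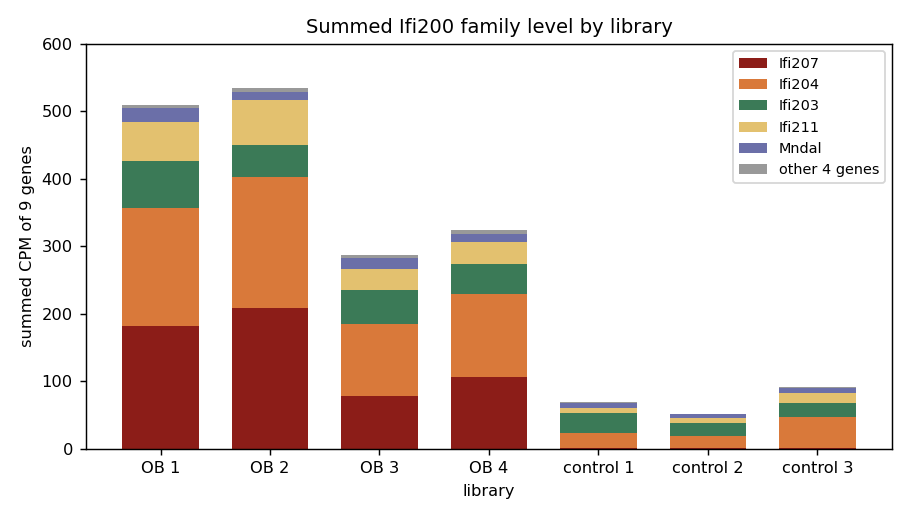
Summed CPM of the 9 family genes in each library, with OB on the left and control on the right and colours for the genes; the last colour joins Ifi208, Ifi205, Ifi209 and Aim2. The bars reach 288 to 535 CPM in OB and 51.4 to 91.2 CPM in control, and the Ifi207 share is 33.7% in OB and 1.97% in control.

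To order the genes by level, CPM was divided by the deposited exon length in kilobases. In OB, Ifi207 and Ifi204 led at 42.0 ± 18 and 41.9 ± 11.7 CPM per kb (SD, n = 4), followed by Ifi211 at 26.2 ± 9.96, Ifi203 at 7.95 ± 1.61 and Mndal at 4.26 ± 1.22. Ifi208, Aim2, Ifi205 and Ifi209 stood between 0.536 and 0.133 CPM per kb. Neighbours in this order overlapped in their OB libraries, except that Ifi211 lay clear of Ifi203, Ifi203 of Mndal and Mndal of Ifi208. In control, Ifi204 led at 8.02 ± 4.27 CPM per kb (SD, n = 3), then Ifi211 at 5.26 ± 2.46, Ifi203 at 3.48 ± 0.723 and Mndal at 1.97 ± 0.313. Ifi207 was the fifth in control at 0.389 ± 0.0758 CPM per kb, clear of Mndal above it and of Aim2 below it.

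The family sits in 1 stretch of chromosome 1 of mm10. Aim2 (ENSMUSG00000037860) lies at 173350879 to 173466040 on the plus strand and Ifi205 (ENSMUSG00000054203) at 174011998 to 174031810 on the minus strand. Between them lie Ifi209 (ENSMUSG00000043263) at 173630917 to 173647928 and Ifi208 (ENSMUSG00000066677) at 173673675 to 173698395, both on the plus strand. Ifi207 (ENSMUSG00000073490) at 173723427 to 173741747 and Ifi204 (ENSMUSG00000073489) at 173747293 to 173766943 are next to each other on the minus strand. Mndal (ENSMUSG00000090272), Ifi211 (ENSMUSG00000026536) and Ifi203 (ENSMUSG00000039997) follow on the minus strand. Counts were taken over exons, and 4.27% of the exon bases of Mndal and 0.552% of those of Ifi203 overlap other genes.

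The locus holds 5 further genes of the kind that were not among the names given. Ifi202b, which encodes p202, a family protein with HIN domains and no pyrin domain that restrains Aim2, lies between Ifi203 and Ifi205. It stood at 42.4, 33.8, 49.0 and 44.6 CPM in OB 1 to 4, against 28.1, 17.3 and 56.8 CPM in control 1 to 3, and the groups overlapped. Its log2 fold change was 0.32 ± 0.36 (edgeR adjusted p = 0.621), and it turned to -0.29 in the unnumbered libraries and -0.01 without control 2. By limma-voom it was 0.95 and passed (adjusted p = 0.0331), and without control 3 it was 0.89 (edgeR adjusted p = 0.0618). The ratio of Ifi204 to Ifi202b CPM was 2.18 to 5.74 in OB and 0.788 to 1.02 in control. The pseudogene Ifi203-ps stood at 1.74 ± 0.516 CPM in OB (SD, n = 4) and 0.556 ± 0.339 CPM in control (SD, n = 3), or 1.59 ± 0.47 on the log2 scale (SE, edgeR adjusted p = 0.0776), and it passed by DESeq2 (0.00973), by limma-voom (0.0376), with the label-set term (0.0168) and in the unnumbered set alone (0.00826).

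Ifi206, Ifi213 and Ifi214 were too rare to pass the filter. Ifi206 had 78 counts over the OB libraries and 1 over the control libraries, a ratio of pooled CPM of 74.1 (95% exact binomial interval 12.9 to 2965). OB 2 held 56 of those 78 counts, and the ratio was 33.6 without it. Without control 1, which held the only control count, it was at least 13.9. Ifi213 and Ifi214 had 52 and 39 counts over OB and 0 over control. Against the 3 counts over the control libraries that a count of 0 allows, they were at least 16.5-fold and 12.4-fold higher in OB. The bounds were 9.15-fold and 8.13-fold without OB 2, which held 34 and 23 of the counts, and 9.26-fold and 6.95-fold without control 1. With no filter on low counts 3 of the 5 were called higher, and by DESeq2 4 of them, beside 2.43% and 6.88% of all genes tested in that way.

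**Figure D3:**
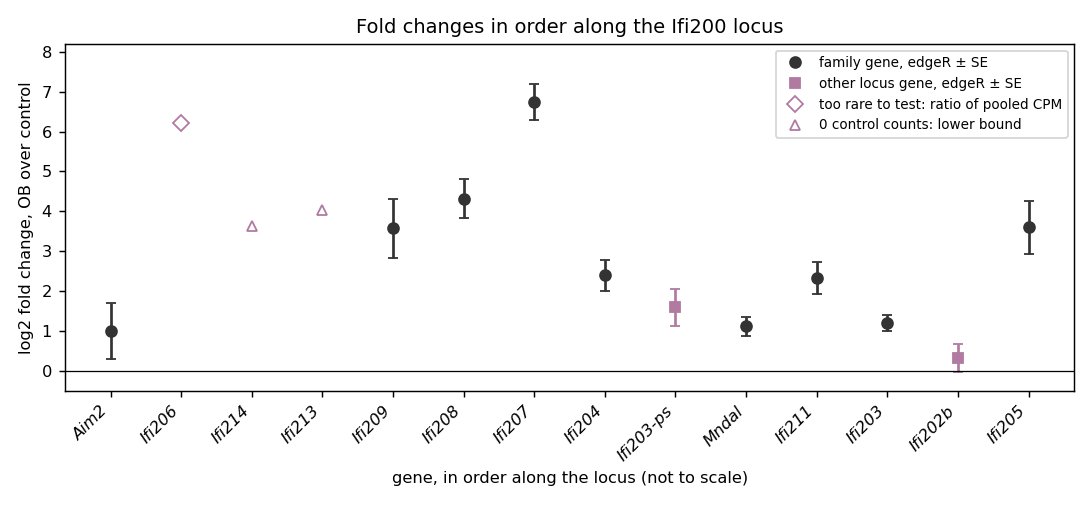
Log2 fold change of OB over control for the 14 genes in their order along the locus (not to scale), with SE bars for tested genes, a diamond for the ratio of pooled CPM of Ifi206 and open triangles for lower bounds of Ifi213 and Ifi214. Ifi207 is the highest at 6.74, and Ifi202b is the nearest to 0 at 0.32.

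How far fragments could be given to 1 gene differed between the paralogs, because fragments with more than 1 alignment were left out of the counts. Of the 50-base words of the Ifi211 transcript 72.8% recur in transcripts of other genes, and 44.7% of its words recur in Ifi205. The share was 33.7% for Ifi209 (Ifi214 the closest), 20.9% for Ifi208 (Ifi213), 20.0% for Ifi204 (Ifi211), 19.6% for Mndal (Ifi211), 18.6% for Ifi205 (Ifi211) and 12.4% for Ifi203 (Ifi203-ps). It was 7.29% for Ifi207 and 0.742% for Aim2. The longest coding sequences were 94.7% identical between Ifi204 and Ifi211 over the aligned bases and 94.7% between Ifi211 and Ifi205. Ifi208 and Ifi213 were 96.9% identical, as were Ifi209 and Ifi214, while Aim2 was 43.6% to 52.0% identical to the others. Levels of Ifi211, Ifi209 and the other genes with high shares are therefore uncertain, and the part of shared sequence in their fold changes was not tested. C3H10T1/2 cells come from the C3H mouse strain and the reference from C57BL/6J, and the effect of strain differences on these counts was not tested.

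The label sets gave a comparison that was not used to list the family. In a model with group and label set, no family gene differed between the unnumbered and the C-numbered libraries at an edgeR adjusted p under 0.05, where 8.60% of all genes tested were called. At an unadjusted p under 0.05 there were 2 of 9, a cut at which the share of all genes was not counted. DESeq2 called 2 of the 9, and 2675 genes in all. Aim2 was higher in the unnumbered libraries, with a log2 difference of 1.63 ± 0.41 (SE, edgeR adjusted p = 0.0518). Ifi207 was lower in them, with a log2 difference of -0.87 ± 0.22 (SE, edgeR adjusted p = 0.0554). Without control 3 the number past the threshold was 3: Ifi207, Ifi204 and Ifi211, with edgeR adjusted p = 0.0280, 0.0358 and 0.0151. Without OB 1 it was 1, Aim2, with edgeR adjusted p = 0.0474.

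The difference between OB and control also depended on the label set for 2 of the 9 genes. The OB to control ratio of Ifi204 was 2.49 in the unnumbered and 9.28 in the C-numbered libraries, and that of Ifi211 was 2.20 in the unnumbered and 9.01 in the C-numbered libraries. By edgeR's interaction test the log2 effects differed by -1.90 ± 0.20 for Ifi204 and -2.03 ± 0.19 for Ifi211 (SE), with adjusted p = 0.0176 and 0.0171. In all, 6.50% of genes tested passed this test, and 3.39% with the smaller effect in the unnumbered libraries. The other 7 genes did not pass, and among them Ifi207 had ratios of 72.6 in the unnumbered and 143 in the C-numbered libraries (edgeR adjusted p = 0.211). In the same order of label sets, Ifi203 had ratios of 2.26 and 2.41, and Mndal of 2.04 and 2.27. Where low counts were kept, the log2 effects of Ifi207 differed by -0.95 between label sets and passed. The unnumbered set holds only control 3 as a control, which was assumed to vary like the other libraries. Control 3 had the highest Ifi204 and Ifi211 of the controls, and OB 3 and OB 4 the lowest of the OB libraries.

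**Figure D4:**
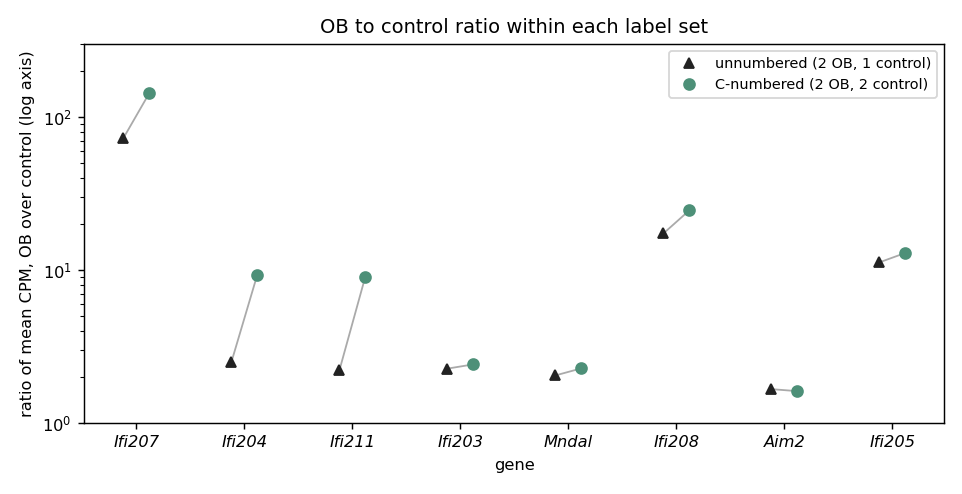
Ratio of mean CPM, OB over control (log axis), for 8 family genes in the unnumbered libraries (triangles, 2 OB and 1 control) and the C-numbered libraries (circles, 2 OB and 2 control); Ifi209 is left out because control 3 had 0 counts. Ifi204 and Ifi211 have ratios of 2.49 and 2.20 in the unnumbered and 9.28 and 9.01 in the C-numbered libraries.

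Few fragments were counted for the interferon genes themselves. Fragments with more than 1 alignment were left out, and the sequence that interferon genes share was not measured. Of 10 listed, 6 had 0 counts in every library and none passed the filter. The highest of them, Ifne, an epithelial type I interferon gene, had 12 counts over OB and 8 over control, and Ifnk had 2 over OB and 3 over control. Among 20 interferon signalling genes 1 rose, 0 fell and 19 did not pass, beside 8.04% of all genes called in either direction. The one that rose was Irf2, a transcription factor gene that competes with Irf1 at interferon promoters. It stood at 52.3, 63.1, 34.4 and 39.9 CPM in OB 1 to 4, against 22.6, 22.8 and 20.8 CPM in control 1 to 3, with a log2 fold change of 1.10 ± 0.21 (SE, edgeR adjusted p = 0.0225). This call ended without OB 1 (adjusted p = 0.0727) or control 2 (0.0787). Stat3 and Jak1, the most abundant of the list, differed by 0.66 ± 0.21 and -0.29 ± 0.13 on the log2 scale, short of the threshold (edgeR, adjusted p = 0.103 and 0.192). Stat3 passed under the replicate block, at 0.73 (edgeR, adjusted p = 0.0232), with the label-set term (0.00381), by DESeq2 (0.0498) and in each label set alone, and Jak1 in the unnumbered set alone (0.00390). The median of the list was 0.09.

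Most other interferon-stimulated genes did not pass. Of 43 tested, 1 rose, 0 fell and 42 did not pass, with a median log2 fold change of 0.37 beside 0.00 over all genes. At an unadjusted p under 0.05, 13 were higher and 1 lower. The share of all genes at that cut was not counted, so nothing is read from these counts. DESeq2 called 10 higher, beside 6.88% of all genes tested, and limma-voom 5, beside 8.08%. The gene that rose was Ifih1, which encodes the RNA sensor MDA5, at 7.37 ± 2.43 CPM in OB (SD, n = 4) and 2.31 ± 0.987 CPM in control (SD, n = 3). Its log2 fold change was 1.66 ± 0.38 (SE, edgeR adjusted p = 0.0387), and control 1 was the only library whose removal left the call standing (adjusted p of 0.0518 to 0.123 for the others). With the replicate block the call was also lost (0.0915). B2m and Ifitm3, the most abundant of the list, differed by 0.39 ± 0.10 and 0.30 ± 0.33 on the log2 scale without passing (edgeR, adjusted p = 0.0584 and 0.613). B2m passed with the label-set term (adjusted p = 0.0216), in the unnumbered set alone (0.00360), and by limma-voom (0.0277) and DESeq2 (0.00966). The sign for Ifitm3 turned by limma-voom and without control 3. Within label sets, 38 of these genes were higher and 1 lower in the unnumbered libraries, where 18.9% of all genes tested were higher and 21.2% lower. That count rests on control 3 as the only control. In the C-numbered libraries 3 were higher and 4 lower, beside 6.27% and 3.41% of all genes tested. The difference between these lists and the family was not tested.

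Among cytosolic DNA sensing and inflammasome genes, 17 were tested, of which 1 rose, 1 fell and 15 did not pass. Of all genes tested, 8.04% were called in either direction. Samhd1, a nucleotide hydrolase gene that restricts viruses, stood at 220 ± 23.0 CPM in OB (SD, n = 4) and 123 ± 29.4 CPM in control (SD, n = 3), with a log2 fold change of 0.83 ± 0.18 (SE, edgeR adjusted p = 0.0307). Hmgb1, a chromatin protein gene, stood at 193 ± 7.55 CPM in OB (SD, n = 4) and 298 ± 56.0 CPM in control (SD, n = 3), with a log2 fold change of -0.62 ± 0.14 (SE, edgeR adjusted p = 0.0332). Both calls ended without control 2 or any 1 of the OB libraries, with adjusted p of 0.0544 to 0.1 for Samhd1 and 0.0799 to 0.101 for Hmgb1. That of Hmgb1 also ended under the replicate block (0.0662). Tmem173, the gene of STING, picked out after its values were seen, stood at 0.975 ± 0.303 CPM in OB (SD, n = 4) and 2.25 ± 1.2 CPM in control (SD, n = 3), with edgeR adjusted p = 0.122.

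Of the genes listed here as p204 binding partners, 11 were tested, of which 0 rose, 1 fell and 10 did not pass. Their median log2 fold change was -0.26, and 8.04% of all genes tested were called in either direction. Trp53, the p53 tumour suppressor gene, stood at 117 ± 8.72 CPM in OB (SD, n = 4) and 163 ± 21.2 CPM in control (SD, n = 3). Its log2 fold change was -0.48 ± 0.12 (SE, edgeR adjusted p = 0.0486), and its call ended without any 1 of the 7 libraries (0.0571 to 0.124), under the replicate block (0.115) and where low counts were kept (0.0596). Runx2, picked out after its values were seen, stood at 76.6 ± 6.75 CPM in OB (SD, n = 4) and 97.1 ± 13.6 CPM in control (SD, n = 3). Its log2 fold change was -0.34 ± 0.13 (SE, edgeR adjusted p = 0.135). Id3 and Ubtf, the most abundant of this list, differed by 0.45 ± 0.17 and -0.26 ± 0.18 on the log2 scale without passing (edgeR, adjusted p = 0.147 and 0.409). Id3 passed under the replicate block, at 0.52 (edgeR, adjusted p = 0.0410), with the label-set term (0.00716) and in each label set alone, and Ubtf in the unnumbered set alone (0.0109). Over all of these lists 3 genes rose and 2 fell of 92 tested, beside 4.32% and 3.72% of all genes tested. Under the replicate block 6 rose and 1 fell, beside 5.38% and 3.38% of all genes tested.

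Ifi200 genes are also expressed in blood cells, so markers of other cell types were read in the same libraries. Of 16 macrophage and blood cell markers 5 were tested and none passed, with summed levels of 9.35 to 14.7 CPM in OB and 11.4 to 14.5 CPM in control. The highest of them, Cd14, stood at 7.93 ± 2.25 CPM in OB (SD, n = 4) and 8.35 ± 2.6 CPM in control (SD, n = 3). Cd68 followed at 2.33 ± 0.438 CPM in OB and 2.36 ± 0.445 CPM in control. The remaining markers tested, Csf1r, Fcgr1 and Lyz2, differed by -0.40, 0.35 and 0.72 on the log2 scale (edgeR, adjusted p = 0.676, 0.814 and 0.326). The pan-leukocyte marker Ptprc had 3 counts over OB and 3 over control, and Adgre1, Tyrobp and Cd3e had 0 in every library. Endothelial markers summed to 3.34 to 8.07 CPM in OB and 2.38 to 9.45 CPM in control, and epithelial markers to 1.07 to 1.87 CPM in OB and 1.59 to 3.99 CPM in control. Mesenchymal markers summed to 20064 to 29749 CPM in OB and 27389 to 33713 CPM in control. Of the 10, Pdgfra rose (log2 fold change 1.54, edgeR adjusted p = 0.0182) and 9 did not pass, with a median of -0.03. Col1a1 was lower without passing (log2 fold change -0.78, edgeR adjusted p = 0.0751). DESeq2 and limma-voom each called 1 higher and 1 lower.

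Across the 7 libraries, the summed family level was compared with 10371 other genes. The 5 genes with the highest Pearson correlation of log2 CPM were Gabarapl1 (0.994), Mt1 (0.993), Dctn5 (0.992), Bcap29 (0.990) and Atp6v1e1 (0.989). Mt1, a metallothionein gene, stood at 401, 360, 189 and 210 CPM in OB 1 to 4, against 68.3, 50.9 and 80.0 CPM in control 1 to 3. Gabarapl1, an autophagy gene, averaged 113 CPM in OB and 57 CPM in control. Each value rests on 7 libraries that fall into 2 groups, and no p is attached to it.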

How the data were processed

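The labels give Trizol extraction and TruSeq v2 libraries. Trimmomatic, HISAT2, featureCounts and mm10 appear in the submitters' processing notes. The deposited counts are whole fragments per gene: per the file headers, featureCounts 1.6.4 summed exons of Ensembl release 94, unstranded, leaving out multi-mapped and ambiguous fragments. The deposited exon lengths, in bases, were used as another measure for CPM per kb. Gene names came from a table that matched 54409 of 54532 features. Counts were analysed with edgeR 4.0.16 (R 4.3.3): filterByExpr, TMM factors of 0.981 to 1.02, the quasi-likelihood test of OB against control over all 7 libraries and Benjamini-Hochberg adjustment over 15441 genes at 0.05. SE is the absolute log2 fold change over the square root of F. Label set was tested as a term and as an interaction with group. The steps were tested on simulated data.

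The members and lists were chosen with earlier results of these data known. Alternatives were DESeq2 size factors and upper-quartile scaling in edgeR, no filter, DESeq2 1.42.0, limma-voom (limma 3.58.1), a replicate block, a label-set term, each label set alone and leaving out each library. The ratios of rare genes without each library were added after the data were seen. Deviations from group means of same-numbered libraries correlated at 0.167, 0.523 and 0.398 across genes, above the bound set for pairs, so blocked values stand beside the results they change. Between libraries of different numbers the correlation was -0.469 to 0.27, and OB 1 correlated more with control 2 (0.209) than with control 1. The replicate numbers follow the label sets. Libraries of a group differed by 13.56 to 148.2 in chi-square per degree of freedom, so each counted as 1 replicate. The design text calls the replicates biological. Named were all family genes, Tsc22d3 and Fkbp5, up to 4 called genes of each list by p (the 2 most abundant added where fewer than 2 passed) and the 5 genes most like the summed family level. Outside this rule, Tmem173, Pycard, Casp1, Pdgfra, Col1a1, Runx2 and the blood cell markers were picked out after their values were seen. Log2 CPM used a prior count of 2. Coding sequences were aligned in pairs with MAFFT 7.526.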

Additional observations from a re-analysis of the deposited data

Results flagged for a closer look

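Ifi204 and Ifi211 differed in their OB effect between the unnumbered and the C-numbered libraries by -1.90 and -2.03 on the log2 scale, and the difference itself passed edgeR's interaction test (adjusted p = 0.0176 and 0.0171), which 6.50% of genes passed. DESeq2 gave adjusted p = 4.48e-11 and 4.18e-12, and with DESeq2 size factors edgeR gave 0.0171 for both. The unnumbered set has 1 control library, and the sequences of these genes are 94.7% identical over the aligned coding bases. The part of either in the difference was not tested.

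The Ifi208 level of OB 2, 4.91 CPM beside 1.81 to 2.32 CPM in the other OB libraries, stood apart, with a gap to its neighbour of 0.836 of the range of the group in 4 samples, above Dixon's 95% critical value. Chance flags about 1 in 20 groups.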

How the results depend on the processing

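The log2 fold changes of the 9 family genes kept a positive sign under every alternative that tested them, from 0.54 for Aim2 to 7.14 for Ifi207. They ranged over 3.04 to 4.50 for Ifi205 and 2.91 to 6.52 for Ifi209, the highest by limma-voom and in the unnumbered libraries, where the control of Ifi209 is at 0. The count of family genes past the threshold was 8 in the analysis reported. It was 4 to 7 when a library was left out and 5 in the C-numbered libraries alone. Ifi209 fell below the filter, and was not tested, without OB 2, OB 3 or OB 4 and in the C-numbered libraries. Genes called higher and lower over the whole table, 667 and 574 in the analysis reported, were 1292 and 1128 by DESeq2, 1247 and 1081 by limma-voom and 1592 and 1480 with the label-set term. They were 3052 and 3413 in the unnumbered libraries, 1030 higher in the C-numbered ones, and 190 to 575 higher and 104 to 703 lower when a library was left out. For the listed interferon, DNA sensing, p204 partner and locus genes, 3 higher and 2 lower became 8 higher with no filter, 20 and 6 by DESeq2, 10 and 5 by limma-voom, 6 and 1 under the replicate block and 15 and 5 with the label-set term. They became 11 and 4 in the C-numbered and 54 and 14 in the unnumbered libraries, and 0 to 5 higher and 0 to 2 lower when a library was left out. Genes called between label sets, 1328 in all, were 3489 with no filter, 2675 by DESeq2 and 60 to 1120 with a library left out. Family genes among them were 2 with no filter, 2 by DESeq2 and 0 to 3 with a library left out. The interaction called 1003 genes, 2948 with no filter and 1935 by DESeq2. Ifitm3 turned to -0.01 by limma-voom and -0.04 without control 3 (up to 0.50 with another library left out), and Ifi202b to -0.29 in the unnumbered libraries and -0.01 without control 2 (up to 0.89, and 0.95 by limma-voom); the cause was not tested. The replicate block left 8 family genes past the threshold. The family was listed with OB against control known, so nothing is read from its counts or signs in that contrast. Depth limits Ifi205, Ifi209, Ifi206, Ifi213 and Ifi214, where 3 counts equal 0.0645 to 0.141 CPM.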
